A study of Mus musculus with 9 samples.

Results

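A set of 6 mature miRNAs known from white blood cells and platelets was followed in small RNA libraries of mouse serum: miR-223-3p (miRBase MIMAT0000665), miR-142a-5p (MIMAT0000154), miR-142a-3p (MIMAT0000155), miR-150-5p (MIMAT0000160), miR-146a-5p (MIMAT0000158) and miR-155-5p (MIMAT0000165). The rule that defines the set names their miRBase identifiers and uses no threshold on a measured value. Of these 6 identifiers, 5 were listed in the miRNA tables, among 876 identifiers with a count in any library. Serum came from healthy 129/SVj mice of both sexes, aged 2 to 9 months, which were sedated with tribromoethanol before the blood was drawn, and the libraries are labelled as serum pools A, B and C. The RNA of every pool was split into 3 fractions, and each fraction gave 1 library (9 libraries, 3 per group). Control libraries were made without depletion. Beads libraries were made after DNA probes with biotin had captured 5′ tRNA fragments, which arise when tRNA is cleaved at its anticodon, so that streptavidin beads could remove them. RNase H libraries were made after the same kind of fragment had been paired with DNA probes and cleaved by RNase H, an enzyme that cuts RNA in a DNA/RNA duplex. The methods describe aliquots taken from serum that had been pooled from 3 mice, and p-values measure only technical spread if the labelled pools are aliquots of this kind.

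miRNAs are short RNAs that guide Argonaute proteins to messenger RNAs, mainly through the seed, bases 2 to 8 of the mature strand. miR-142 is made across the blood lineages, miR-223 in neutrophils, monocytes and platelets, and miR-150 in mature B and T lymphocytes. miR-146a and miR-155 are induced when immune cells are activated. miR-146a dampens NF-kB signalling through the adaptor proteins TRAF6 and IRAK1, and miR-155 is needed for normal B and T cell responses. Serum is the cell-free fluid left after clotting, so these reads are extracellular. Their cells of origin cannot be read from the counts, and neither can the number of releasing cells or the RNA released per cell. Within a pool the groups were made from fractions of the same RNA, so differences between groups do not measure release from cells.

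The mature sequences of the members are shown because the tables list identifiers without names or sequences and because one of them, miR-146a-5p, has a near copy in the genome. They are given 5′ to 3′ from RefSeq (GRCm38.p6), with the seed in capitals. miR-150-5p is named only.
miR-223-3p: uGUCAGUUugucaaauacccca
miR-142a-5p: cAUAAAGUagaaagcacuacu
miR-142a-3p: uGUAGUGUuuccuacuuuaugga
miR-146a-5p: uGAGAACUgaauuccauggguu
miR-155-5p: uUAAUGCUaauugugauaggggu
miR-146b-5p: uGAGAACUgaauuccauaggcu

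miR-223-3p lies on the plus strand of chrX:96242884-96242905, and its hairpin falls in exons of both annotated transcripts of the noncoding gene F630028O10Rik that overlap it on the same strand. miR-142a-5p (chr11:87756867-87756887) and miR-142a-3p (chr11:87756903-87756925) are the arms of 1 hairpin on the plus strand, which lies in an intron of the long noncoding RNA Mir142hg. miR-146a-5p lies on the minus strand of chr11:43374435-43374456, in a hairpin that overlaps no other annotated gene. miR-155-5p lies on the plus strand of chr16:84714143-84714165, in exons of its host noncoding RNA Mir155hg. miR-146b-5p (chr19:46342790-46342811, plus strand) is not a member, and it carries the same seed as miR-146a-5p. It differs from miR-146a-5p at 2 of 22 bases, G18A and U21C, counted from the 5′ end with the miR-146a-5p base first. A read that ends before base 18 therefore matches both. No other mature name in the RefSeq set carries the seed of miR-223-3p, of either miR-142a arm or of miR-155-5p.

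The hairpin of miR-142a is printed with its 5p and 3p arms in capitals, because only the 5p arm was listed in the tables.
Mir142: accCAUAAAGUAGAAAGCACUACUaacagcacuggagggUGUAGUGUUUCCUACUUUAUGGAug

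miR-142a-3p had no entry in any of the 9 tables used here, so no level is given for it. The tables list miRNAs from 1 count upwards, and whether no read was counted or the reads were assigned elsewhere cannot be told from them. The annotation places a second miRNA, miR-142b, on the opposite strand at chr11:87756906-87756925, and all of its 20 bases overlap the 23 bases of miR-142a-3p. Whether the counting used strand is not given in the sources used here. The partner strands of the other hairpins were not matched to an identifier and are not analysed here.

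Libraries held 205185 to 330676 miRNA counts in the control group, 1822088 to 1995956 in the beads group and 1199 to 2040 in the RNase H group. A member's level is its count scaled to the sum of all miRNA counts of the library, in counts per 1000000 (CPM). A count of 3, taken as the smallest level that can be told from 0, was worth 9.072 to 14.62 CPM in control, 1.503 to 1.646 CPM in beads and 1471 to 2502 CPM in RNase H libraries. Levels of miR-223-3p, miR-146a-5p and miR-155-5p in control and beads libraries lay below the RNase H floor, so RNase H libraries could not resolve them.

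The members together made up 4.27%, 4.75% and 4.68% of the miRNA counts in control pools A, B and C. Their share was 4.32%, 4.87% and 4.05% in the beads libraries and 3.63%, 3.90% and 4.00% in the RNase H libraries of the same pools. The group means were 4.57% ± 0.257, 4.41% ± 0.417 and 3.84% ± 0.194 (SD, n = 3 each), so control and beads differed by less than the spread between replicates, and every RNase H library lay below every control library. The RNase H shares rested on only 74, 77 and 48 summed member counts, and the difference from control was not tested. Of the single miRNAs tested between RNase H and control libraries, 40.6% had groups that did not overlap. One member carried most of this sum. miR-142a-5p accounted for 82.0% to 84.4% of it in control, 80.5% to 82.8% in beads and 76.6% to 90.5% in RNase H libraries. In all control and beads libraries the order was miR-142a-5p, miR-150-5p, miR-223-3p, miR-146a-5p and miR-155-5p, and the ranges of neighbours in this order did not overlap within a group. In control libraries miR-142a-5p had 4.99 to 5.94 times the count of miR-150-5p, miR-150-5p had 13.7 to 18.3 times that of miR-223-3p, miR-223-3p had 1.44 to 2.19 times that of miR-146a-5p, and miR-146a-5p had 5.25 to 18.0 times that of miR-155-5p. The step from miR-223-3p to miR-146a-5p was the narrowest. These ratios compare ligation and amplification products of different sequences, and how far they follow molar amounts was not tested.

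**Figure D1:**
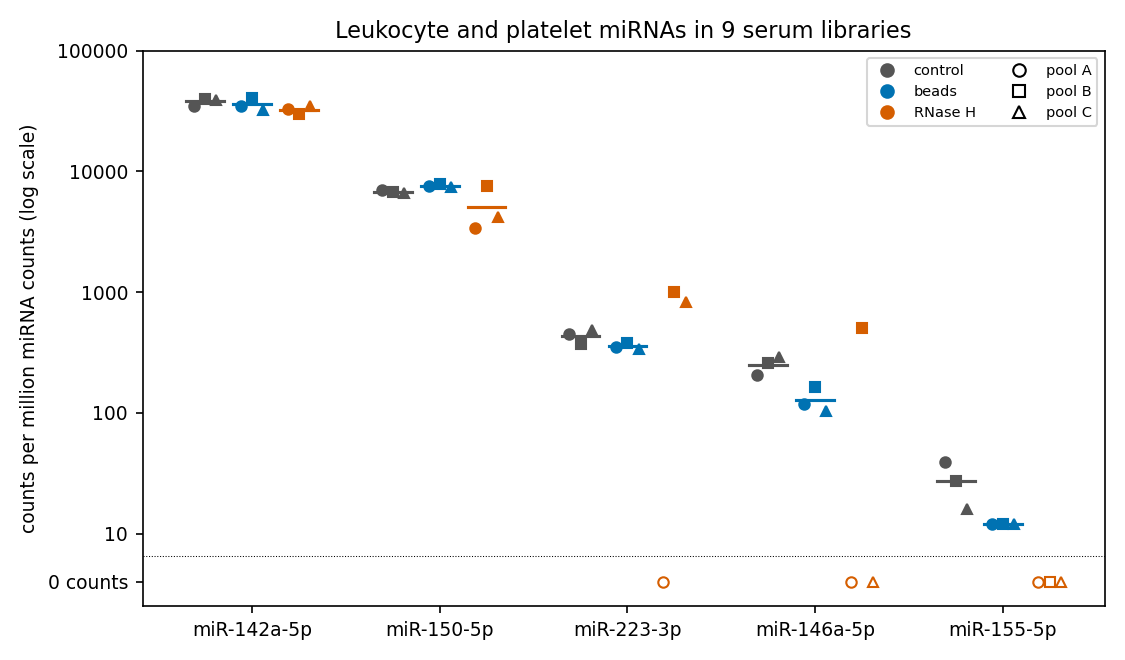
Level of each member (CPM, log scale) in every library, with marker shape for the serum pool, colour for the group and a horizontal bar for the group mean where every library of the group had a count; open markers below the dotted line are libraries with 0 counts. miR-142a-5p lies between 29840 and 40270 CPM in all 9 libraries, while miR-155-5p lies between 11.9 and 39.0 CPM in control and beads libraries and has 0 counts in all RNase H libraries.

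The comparison of beads with control libraries addresses whether the beads protocol as a whole left relative miRNA levels as they were. Besides the removal of 5′ tRNA fragments, this protocol includes heating, probe hybridization and ethanol precipitation. The part of each step was not tested. The result differed between the members. miR-146a-5p fell to 0.511 of its control level, and miR-155-5p, with few counts, was also called lower. miR-142a-5p, the most abundant, was at 0.947 of its control level and was not called. In edgeR's quasi-likelihood test across 307 miRNAs, 2 of the 5 members tested had an adjusted p below 0.05, both lower in beads libraries, beside 10.1% of all tested miRNAs called lower and 16.6% called higher (26.7% in all). The groups did not overlap for 3 members (2 lower and 1 higher in beads), beside 38.8% of all tested miRNAs (16.0% lower and 22.8% higher). The median log2 fold change was -0.26 over the members and 0.04 over all tested miRNAs.

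miR-142a-5p, the arm of the hairpin made across blood lineages, had 35000, 40060 and 39300 CPM in control pools A, B and C, from 7182, 13248 and 9774 counts. Beads libraries had 35170, 40270 and 32560 CPM, from 67766, 80385 and 59327 counts. The groups overlapped, pools A and B were almost unmoved, and the beads library of pool C was the lowest of the 6. The log2 fold change was -0.08 ± 0.0581 (SE, 95% interval -0.19 to 0.04, adjusted p = 0.367). Without the beads library of pool B the change was -0.15 and passed the test (adjusted p = 0.0434). It ranked 8th among the miRNAs of each of these 6 libraries.

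miR-150-5p, the lymphocyte miRNA, had 7018, 6744 and 6675 CPM in control libraries (6812 ± 181, SD, n = 3). It had 7571, 7839 and 7454 CPM in beads libraries (7621 ± 197, SD, n = 3). All 3 beads libraries lay above all 3 control libraries, and the beads library was the higher one in each pool. The log2 fold change was 0.17 ± 0.0707 (SE, 95% interval 0.03 to 0.31), which did not pass adjustment (adjusted p = 0.0609). With the serum pool as a block it did (log2 fold change 0.17, adjusted p = 0.0266), as it did without the beads library of pool C (0.19, adjusted p = 0.0470).

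miR-223-3p, the miRNA of myeloid cells and platelets, had 448, 369 and 486 CPM in control libraries, from 92, 122 and 121 counts. Beads libraries had 353, 380 and 338 CPM, from 680, 758 and 616 counts. The groups overlapped through pool B, where the beads library was slightly higher, and beads was lower in pools A and C. The log2 fold change was -0.26 ± 0.129 (SE, 95% interval -0.52 to -0.01, adjusted p = 0.116).

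miR-146a-5p, the brake on NF-kB signalling, had 205, 257 and 290 CPM in control libraries (250 ± 42.8, SD, n = 3), from 42, 85 and 72 counts. Beads libraries had 118, 163 and 104 CPM (129 ± 30.9, SD, n = 3), from 227, 326 and 190 counts. Every beads library lay below every control library, and within pools A, B and C the log2 ratio was -0.80, -0.65 and -1.47. The fitted log2 fold change was -0.97 ± 0.161 (SE, adjusted p = 1.89e-08). Leaving out any library kept it between -1.17 and -0.83 and past the threshold. The count itself did not fall: beads libraries held 5.40, 3.84 and 2.64 times as many miR-146a-5p reads as the control libraries of pools A, B and C, while all miRNAs together had 9.39, 6.04 and 7.33 times as many. The change is therefore a smaller rise in reads than that of miRNAs as a whole. Whether molecules of miR-146a-5p were lost cannot be read from read counts. Of the miRNAs called lower, 13 fell by at least as much, miR-146a-5p included. Its rank went from 99 to 107 in control libraries to 120 to 143 in beads libraries.

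miR-155-5p, the miRNA of activated lymphocytes and macrophages, was the rarest member. It had 8, 9 and 4 counts in control libraries, or 39.0, 27.2 and 16.1 CPM, and 23, 24 and 22 counts in beads libraries, or 11.9, 12.0 and 12.1 CPM. The groups did not overlap, although the Wilson 95% interval of the control library of pool C (6.26 to 41.4 CPM) included all beads values. The log2 fold change was -1.15 ± 0.461 (SE, adjusted p = 0.0493), just inside the threshold. It lost the call without the control library of pool A (-0.88, adjusted p = 0.280), the control library of pool B (-1.11, adjusted p = 0.170), or the beads library of pool A (-1.14, adjusted p = 0.0672), B (adjusted p = 0.0685) or C (adjusted p = 0.0569), and when rare miRNAs were not filtered (adjusted p = 0.169).

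**Figure D2:**
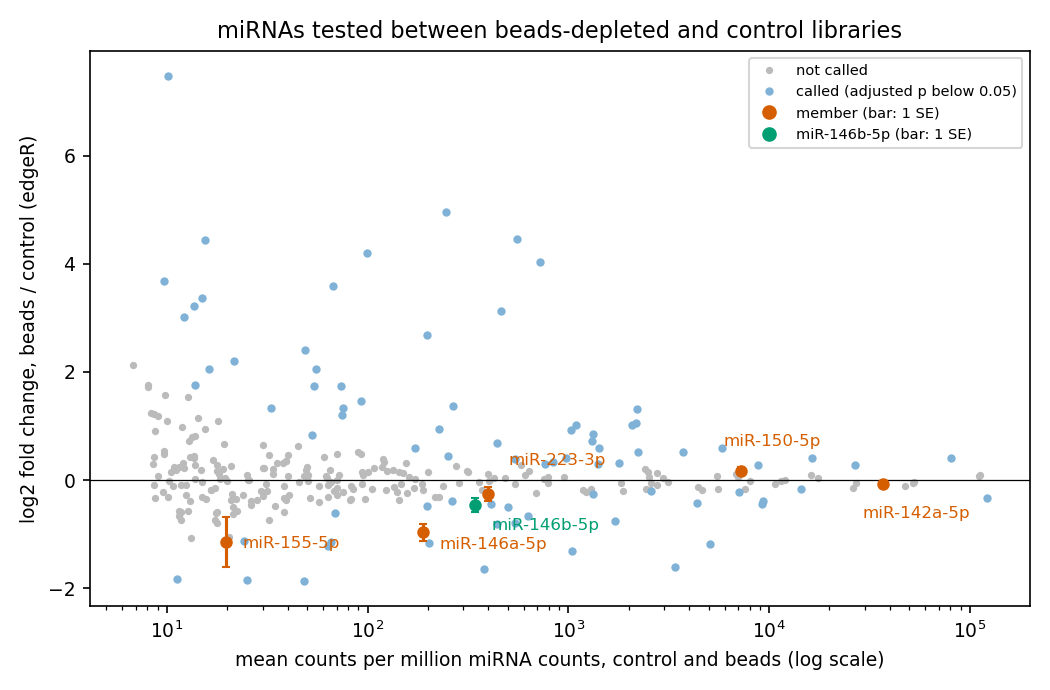
Log2 fold change of beads over control (edgeR) against mean level (CPM, log scale) for the 307 miRNAs tested, with called miRNAs in blue, members in orange and miR-146b-5p in green (bars, 1 SE). miR-142a-5p and miR-150-5p lie close to 0 at the abundant end, and miR-146a-5p (-0.97) and miR-155-5p (-1.15) lie below the other members.

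Of the other 6 miRNAs listed as known from leukocytes, 5 were in the tables and tested, with a median log2 fold change of -0.015 in beads against control libraries. None was called higher and 1 was called lower, miR-146b-5p, which shares the seed of miR-146a-5p. It had 317, 324 and 559 CPM in control and 277, 299 and 288 CPM in beads libraries, and its log2 fold change was -0.46 ± 0.135 (SE, adjusted p = 0.00285). The groups did not overlap, and pool C moved most, as it did for miR-146a-5p. The ratio of miR-146a-5p to miR-146b-5p counts, which needs no scaling by depth, was 0.646, 0.794 and 0.518 in control and 0.426, 0.546 and 0.363 in beads libraries of pools A, B and C. It was lower in beads in 3 of 3 pools, by -0.60, -0.54 and -0.51 on the log2 scale. The pools differed more than this change, so the groups overlapped. A two-sided exact sign-exchange permutation test within pools gave p = 0.25, the smallest that 3 pairs allow, and the unpaired exact permutation test gave p = 0.2, where no p below 0.1 is possible, so neither could pass 0.05. The abundant members of this list stayed close to 0: miR-181a-5p, an miRNA of lymphocyte development, was at 0.00 (adjusted p = 0.971), miR-21a-5p at -0.015 (adjusted p = 0.888) and miR-191-5p at -0.06 (adjusted p = 0.477). miR-342-3p was at 0.16 (adjusted p = 0.467).

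miRNAs of other cells were read beside these values. Red blood cells were represented by miR-451a and miR-144-3p, which derive from 1 gene cluster and mark erythroid cells. Only these 2 of the 3 identifiers on that list were in the tables, and miR-486a-5p was not. Other miRNAs of red cells, partner strands included, were not looked up, so these 2 do not stand for red cell miRNAs as a class. Both rose in beads libraries, miR-451a by 0.41 ± 0.0534 (SE, adjusted p = 4.59e-13) and miR-144-3p by 0.60 ± 0.0938 (SE, adjusted p = 2.68e-09) on the log2 scale, and both were higher in all 3 pools. Their summed share was 7.07% to 7.12% of miRNA counts in control, 9.01% to 9.95% in beads and 5.0% to 7.74% in RNase H libraries. The endothelial miR-126a-5p was at -0.17 (adjusted p = 0.0558), the liver-enriched miR-192-5p at -0.08 (adjusted p = 0.464) and the muscle miRNA miR-133a-3p at 0.08 (adjusted p = 0.462), each the 1 miRNA of its list that was tested. miR-122-5p, the defining hepatocyte miRNA, had 1 to 3 counts per control or beads library and 0 in RNase H libraries. Scaled to depth, it was lower in beads (mean 0.863 CPM) than in control libraries (mean 7.61 CPM). None of its counts exceeded the floor of 3, and it was not among the miRNAs tested. miR-16-5p, an abundant miRNA that red cells also carry, was lower in beads libraries (-0.34, adjusted p = 5.51e-10). The part of these shifts in the values of the members was not tested.

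**Figure D3:**
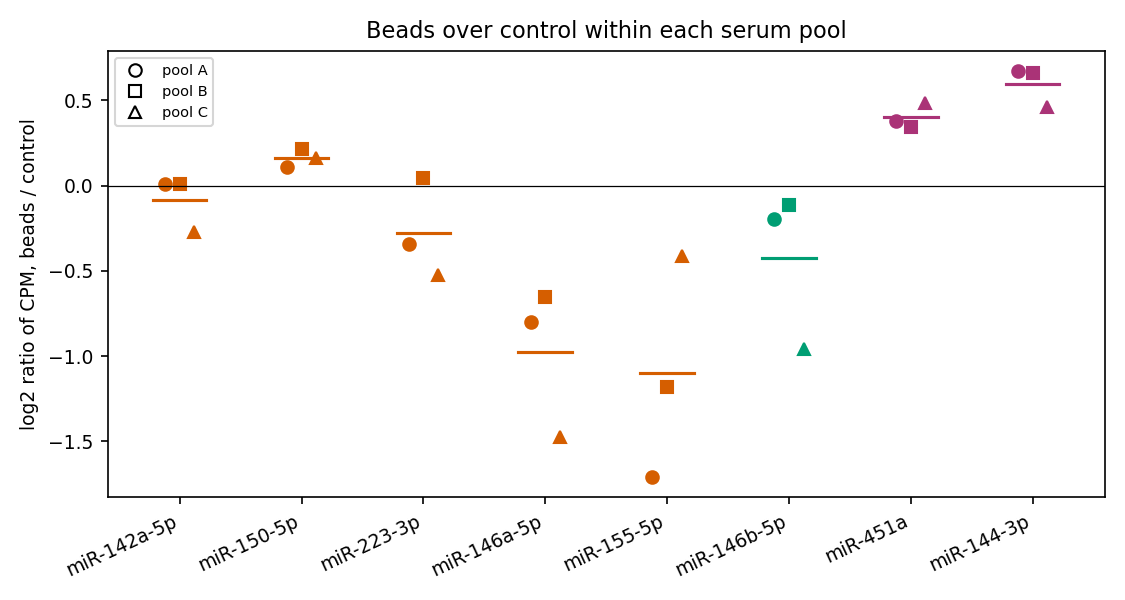
Log2 ratio of CPM in the beads library over the control library of the same serum pool (marker shape) for the members (orange), miR-146b-5p (green) and the red cell miRNAs miR-451a and miR-144-3p (purple), with bars for the mean of the 3 pools. miR-146a-5p and miR-155-5p lie below 0 in every pool, miR-150-5p and the red cell miRNAs lie above 0 in every pool, and pool C is lowest for miR-142a-5p, miR-223-3p, miR-146a-5p and miR-146b-5p.

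The comparison of RNase H with control libraries asks the same question of the other protocol, at a far lower depth. No change of a member was detected at this depth. Of 138 miRNAs tested with edgeR's quasi-likelihood test, 11.6% were called, and 0 of the 4 members tested were among them. An unadjusted p below 0.05 was found for 33 of the 138 miRNAs and for 0 of these 4 members. DESeq2 also called 0 members. The groups of 0 of these 4 members were apart, beside 40.6% of all tested miRNAs. The median log2 fold change was -0.43 over the 4 members and -0.19 over all tested miRNAs, and this overall median moved to 0.03 with another scaling (RLE size factors).

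miR-142a-5p had 67, 59 and 42 counts in RNase H pools A, B and C, or 32840, 29840 and 35030 CPM. RNase H libraries of pools A and B lay below all control libraries and that of pool C lay just inside their range. The log2 fold change was -0.34 ± 0.173 (SE, 95% interval -0.68 to -0.004, adjusted p = 0.246). At the control share of the same pool, 71.4, 79.2 and 47.1 counts would have been drawn, and the 95% Poisson intervals of the observed counts held this number in pools A (51.9 to 85.1) and C (30.3 to 56.8) but not in pool B (44.9 to 76.1). Over the 3 pools, 168 counts were seen against 201 at the pooled control share, a ratio of 0.837 (exact 95% interval 0.715 to 0.974, counting error only). In a joint fit of all 9 libraries the change was -0.53 and passed the test (adjusted p = 0.00771).

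miR-150-5p had 7, 15 and 5 counts in RNase H libraries, or 3431, 7587 and 4170 CPM. Pools A and C lay below all control libraries and pool B above them. The log2 fold change was -0.51 ± 0.261 (SE, adjusted p = 0.247), and the 27 counts seen stood against 35.4 at the pooled control share (ratio 0.762, exact 95% interval 0.502 to 1.11). Single RNase H libraries moved this value. It was -0.25 without pool A (adjusted p = 0.664), -0.31 without pool C (adjusted p = 0.588) and -0.95 without pool B (adjusted p = 0.0616).

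miR-223-3p had 0, 2 and 1 counts, miR-146a-5p had 0, 1 and 0, and miR-155-5p had 0 in all 3 RNase H libraries. The pooled control shares would have given 2.23, 1.32 and 0.14 counts over the 3 libraries, so the libraries were too shallow to show a change of any of them. The 3 counts of miR-223-3p gave a ratio of 1.35 with an exact 95% interval of 0.276 to 3.97, and the 1 count of miR-146a-5p gave 0.756 with an interval of 0.019 to 4.26. For miR-155-5p, the 0 counts had Wilson 95% upper limits of 1880, 1939 and 3194 CPM in pools A, B and C, above its control levels. The beads ratio of miR-146a-5p, 0.511, lay inside its RNase H interval, as did a ratio of 1.

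**Figure D4:**
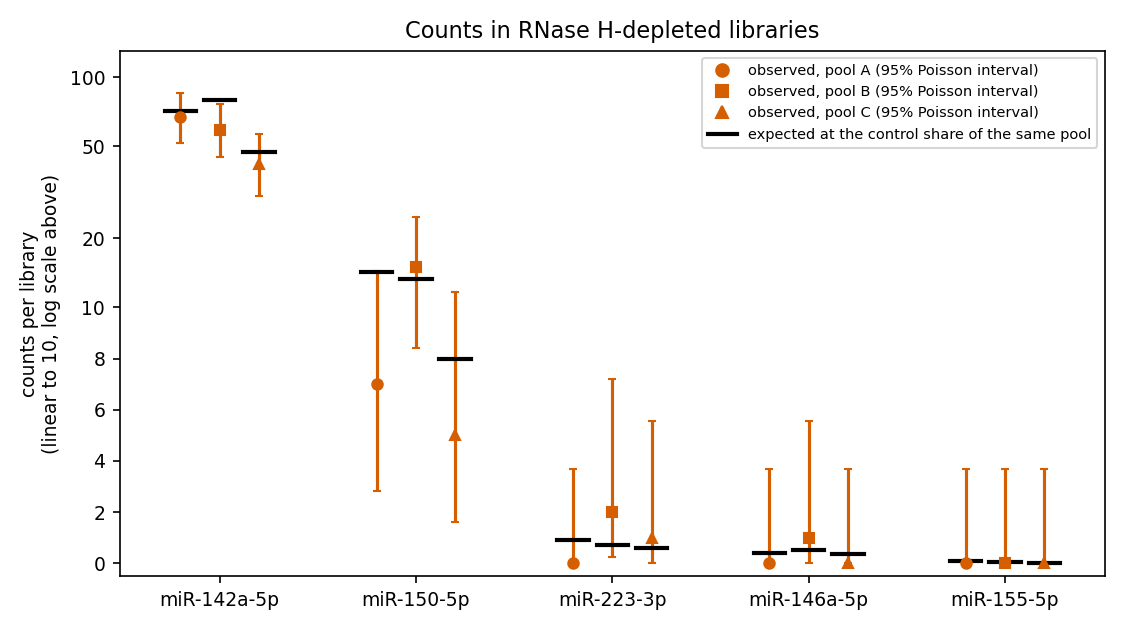
Counts of each member in the 3 RNase H libraries (markers, with exact 95% Poisson intervals) beside the counts expected at the control share of the same pool (black bars); the axis is linear to 10 and logarithmic above. The interval misses the expected count for miR-142a-5p in pool B (59 counts against 79.2), and miR-223-3p, miR-146a-5p and miR-155-5p are expected at less than 1 count per library.

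Between RNase H and beads libraries, 263 miRNAs were tested and 3.80% were called, and 0 of the 5 members were called by edgeR's quasi-likelihood test or DESeq2. The median log2 fold change was -0.85 over all tested miRNAs, those with 0 counts in RNase H libraries included. It was 0.06 over the members with a count in RNase H libraries. The latter set was chosen by that count, so the medians are of unlike sets and cannot be compared. The median over all tested miRNAs moved to 0.97 with DESeq2. It moved to -6.92 without the RNase H library of pool A and also without that of pool B, and to -1.31 without that of pool C. Among the 263 tested miRNAs, 33 had an unadjusted p below 0.05, and 1 of them was a member, miR-150-5p. Its log2 fold change was -0.71 ± 0.291 (SE, adjusted p = 0.168), and without the RNase H library of pool B it was -1.21 and passed the test (adjusted p = 0.0169). miR-142a-5p was at -0.31 ± 0.182 (SE, adjusted p = 0.526), and the sign turned with DESeq2 (0.08). miR-155-5p had 0 counts with RNase H, where its pooled beads share would have given 0.0627 counts over the 3 libraries, so its level could not be compared. This comparison shares its libraries with both comparisons above. Among the other leukocyte miRNAs, 1 of 5 was called against each group, miR-191-5p, which was lower with RNase H than in control (-0.69 ± 0.174, SE, adjusted p = 0.0114) and than with beads (-0.66, adjusted p = 0.0101) on the log2 scale. The endothelial miR-126a-5p was lower as well, by fitted log2 changes of -1.19 (adjusted p = 0.0102) and -1.05 (adjusted p = 0.0344). Of the 2 red cell miRNAs tested, 0 were called between RNase H and control libraries, and miR-451a was lower with RNase H than with beads (-0.68, adjusted p = 0.00552).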

How the data were processed

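Per the labels, small RNA libraries were made from mouse serum RNA with the TruSeq Small RNA kit and 15 PCR cycles, and 3 pools in 3 groups gave 9 libraries. The authors trimmed adapters with Cutadapt 1.8.1, discarded short and low-quality reads and mapped the rest to GRCm38 without mismatches with Bowtie 1.1.2, so reads with an untemplated end or a sequencing error are missing from all counts. The deposited values are raw counts per miRBase identifier, without names and without normalization by the authors. The names of the members come from the rule that chose them, and other names were paired with identifiers from known miRBase numbering (miR-451a MIMAT0001632, miR-144-3p MIMAT0000156, miR-146b-5p MIMAT0003475, miR-181a-5p MIMAT0000210, miR-342-3p MIMAT0000590, miR-21a-5p MIMAT0000530, miR-191-5p MIMAT0000221, miR-122-5p MIMAT0000246, miR-192-5p MIMAT0000517, miR-126a-5p MIMAT0000137, miR-133a-3p MIMAT0000145, miR-16-5p MIMAT0000527), which no table used here repeats. Of the 6 members, 5 were listed, and a ratio of the miR-142a arms could not be made. Members and lists were chosen with earlier results of these data known.

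The counts entered edgeR 4.0.16 under R 4.3.3 (TMM, filterByExpr, quasi-likelihood test, Benjamini-Hochberg adjustment over all miRNAs tested, threshold 0.05), with the 2 groups of a comparison in each fit and the miRNA sum as library size. The SE was derived from the fold change and the root of its F statistic, and its 95% interval is a normal one, so the interval and the p can fall on different sides of the threshold. The fitting code was run on simulated counts, and no result above rests on that check. Alternatives were DESeq2 1.42.0, other scalings and filters, the pool as a block, a joint fit and each library left out. Intervals of shares are Wilson 95%. These, the Poisson and exact intervals and the floor of 3 counts cover counting error only, since PCR reads carry no molecular identifiers. The intervals of fitted fold changes also carry the spread between libraries. Libraries of 1 pool share their RNA, so pools pair the libraries. Deviations from group means correlated within pools at r of 0.17, 0.06 and 0.04 across miRNAs for beads and control libraries, and at -0.08, -0.01 and 0.08 for RNase H and control libraries. Genes around the hairpins are from GENCODE.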

Additional observations from a re-analysis of the deposited data

How the results depend on the processing

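When the pool was fitted as a replicate block, miR-150-5p passed between beads and control libraries (log2 fold change 0.17, adjusted p = 0.0266) and 6 miRNAs instead of 10 were called between RNase H and beads; the block changed no other call of a member. miR-146a-5p stayed lower in beads and past the threshold in 13 of 13 alternatives that scaled to miRNA counts (adjusted p 3.11e-09 to 5.36e-05), and miR-155-5p in 7 of 13 (0.0328 to 0.280). miR-150-5p also passed with at least 10 counts in 3 libraries (adjusted p = 0.0475) and miR-223-3p with RLE size factors (adjusted p = 0.0472).

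Scaling to all annotated counts, tRNA included, moved the median log2 fold change of all tested miRNAs to 3.35 (beads against control), -1.71 (RNase H against control) and -5.68 (RNase H against beads). The log2 fold changes for beads were then 3.06 (miR-223-3p), 3.25 (miR-142a-5p), 3.49 (miR-150-5p), 2.37 (miR-146a-5p) and 2.14 (miR-155-5p). Only miR-150-5p lay above the median for beads, and miR-146a-5p and miR-155-5p lay furthest below it. miR-223-3p was at -1.27 and -4.32 in the RNase H comparisons with control and beads, and miR-146a-5p at -4.46 in the latter. All miRNAs called were 307, 54 and 252, members called 5, 2 and 4, and the ratio of the summed member share 9.72, 0.326 and 0.0335. This total includes the tRNA reads that depletion removes.

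For beads against control, 1 member was called without a filter, and 1 to 2 when a library was left out. The joint fit called 31 miRNAs and 1 member (miR-142a-5p) between RNase H and control, and 5 miRNAs were called between RNase H and beads without TMM. Leaving out a library gave 5 to 22 miRNAs and 0 to 1 members there. The summed share ratio of RNase H to control was 0.803 without miR-16-5p and 0.815 to 0.865 with a library left out. For miR-142a-5p in RNase H against beads, DESeq2 gave 0.076 and RLE size factors 0.077, with the cause not tested. With libraries left out, miR-223-3p ranged from -0.55 to 1.01 (RNase H against control) and -0.37 to 1.25 (against beads), and miR-146a-5p from -0.50 to 0.19 (RNase H against control), each resting on at most 3 RNase H counts. The range of miR-146a-5p leaves out the fit without the RNase H library of pool B, which held its only RNase H count. The ratio of miR-146a-5p to miR-146b-5p, chosen after seeing the data, differed by -0.71 to -0.40 on the log2 scale with a library left out. The planned ratio of the miR-142a arms was not run, because miR-142a-3p was not listed.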

Other observations

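For members with at least 10 counts in every control and beads library, the miRNAs with the most similar pattern were found by the root mean square difference of log2 levels, each centred on its own mean, over the 6 libraries and among 170 miRNAs. miR-150-5p was closest to MIMAT0000616 (0.0460) and miR-142a-5p to MIMAT0004582 (0.0479), against medians over all 170 of 0.209 and 0.221. miR-223-3p was closest to MIMAT0003127 (0.0993, median 0.253). The nearest to miR-146a-5p was MIMAT0000374, at a greater distance (0.182) but with a larger median (0.561). MIMAT0000374 had mean levels of 279 CPM in control and 125 CPM in beads libraries. The next was MIMAT0000521 (0.198), at 2146 and 1272 CPM. How far the low control counts of miR-146a-5p (42 to 85) widened these distances was not tested. miR-155-5p had too few counts to be compared.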
